A study of Bos taurus with 6 samples.

Results

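The genes described here encode 6 chains of the fibril-forming collagens, COL1A1, COL1A2, COL3A1, COL5A1, COL5A2 and COL5A3, and the chains of 2 collagens that lie on the surface of such fibrils, COL12A1 and COL14A1. They were found by gene name and are 8 of the 18010 genes listed in at least 1 animal. The set was drawn up with earlier results of these data known, so counts of its members are a description set beside those of all genes. RNA was sequenced from the longissimus dorsi, the long muscle along the back, of 3 Shandong black cattle and 3 Luxi cattle, all 18 months old. Luxi is a local yellow breed of Shandong province, and Shandong black cattle were bred by combining Japanese black, Luxi and Bohai black cattle. The study's methods name no transgene and no treatment. Its discussion describes Shandong black cattle as offspring of cloned cattle and Luxi cattle as the clone receptor. According to the study's methods, each breed was obtained from its own supplier and the same feeding scheme was used, so that breed and supplier cannot be told apart, and Shandong black cattle share part of their ancestry with the Luxi breed. Values are gene FPKM, fragments scaled by transcript length and library size and summed over the transcripts of a gene. The correction for length allows genes to be set side by side. Where short assembled fragments are added to a gene, as in COL1A1 of Luxi animal 1, the sum refers to no single length. Orders, shares and ratios between genes are then approximate.

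Fibrillar collagens are triple helices of chains in which glycine recurs at a fixed spacing, and after their end pieces are removed they pack into the fibrils that carry tension. In skeletal muscle these fibrils fill the layers around the fibres, the fibre bundles and the whole muscle, and fibroblasts and fibro-adipogenic progenitors make most of them. Type I collagen, built from COL1A1 and COL1A2 chains, is the stiff main component, and type III collagen, built from COL3A1 alone, forms thinner and more compliant fibrils mixed with it. Type V collagen, built from COL5A1, COL5A2 and in places COL5A3, sits inside type I fibrils, starts them and limits their width. Types XII and XIV, the products of COL12A1 and COL14A1, belong to the fibril-associated collagens with interrupted helices. They do not form fibrils of their own, and the name fibril-forming covers them only as partners of the fibrils.

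Messenger RNA of the fibril-forming chains was higher in Luxi cattle, and that of the fibril-associated chains was not. In all 6 genes of types I, III and V every Luxi animal lay above every Shandong black animal, and COL3A1 had the widest gap, 8.04-fold between the breed means. This was 6 of 8 genes, while over all 9781 genes tested 20.0% had each Luxi animal above each Shandong black animal. None of the 8 genes had every Luxi animal below, which held for 9.13% of the genes tested. COL3A1, COL1A2 and COL5A1 were called in limma, that is, their Benjamini-Hochberg adjusted p was under 0.05 and the breed means of log2(FPKM + 1) were 1 or more apart. This was 3 of 8 genes, all higher in Luxi cattle, against 2.57% of the genes tested called in either direction and 1.54% called as higher. The median log2 fold change of the 8 genes, Luxi minus Shandong black, was 1.32, against 0.13 over all genes tested. Median-of-ratios scaling brought these medians to 1.18 and 0.017, and it changed the split of all called genes from 151 higher and 100 lower to 115 and 150.

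**Figure D1:**
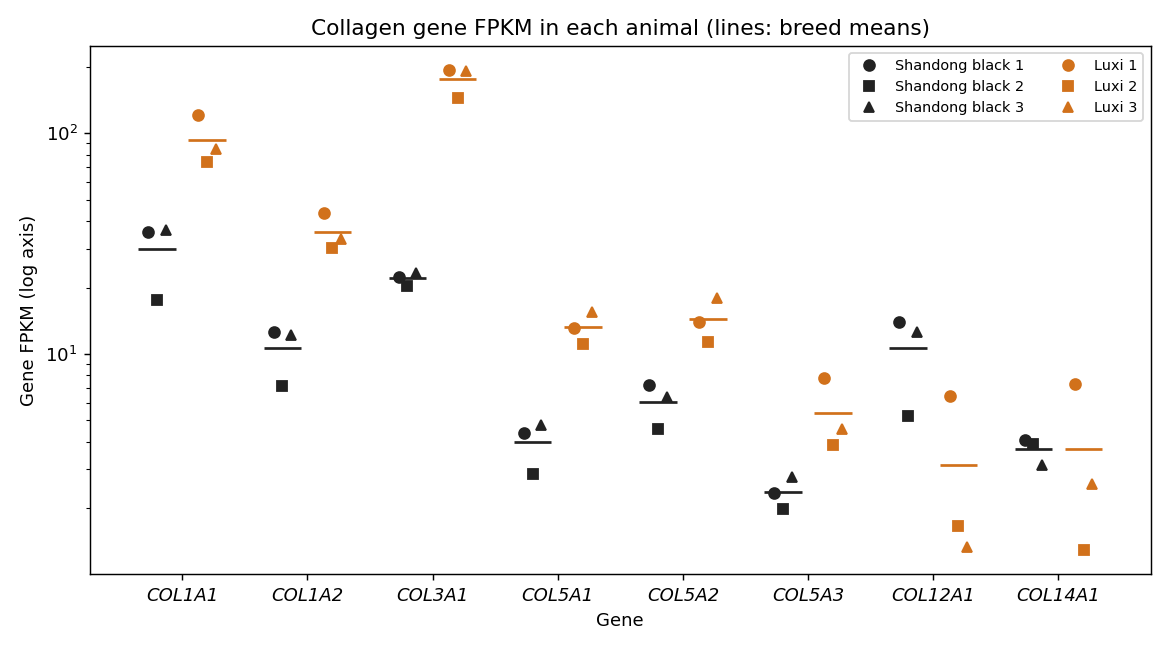
FPKM of each gene on a log axis, with 1 point per animal (black: Shandong black, orange: Luxi) and a line at each breed mean. In the 6 genes of types I, III and V the orange points all lie above the black ones, while in COL12A1 and COL14A1 the breeds overlap.

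The libraries held 14.1 to 14.6 gigabases of aligned sequence for the Shandong black animals and 17.5 to 17.99 for the Luxi animals. These sizes were worked back from the median ratio of depth to FPKM over the transcripts of each library. ACTA1, the actin of the muscle fibre, was at 12237 to 54910 FPKM and lowest in Luxi animal 1. Of 11 fibre markers 0 were called in limma (3 at an unadjusted p under 0.05, 0 with voom), but those of fibre types varied: the fast-fibre troponins TNNT3 and TNNI2 were higher in every Luxi animal, by 6.75-fold and 4.44-fold between the means, the slow-fibre troponin TNNT1 was lower in every Luxi animal, and MYH1, a fast myosin, ran from 0.11 to 59.7 FPKM. This animal also had the lowest DES, the desmin filament gene of muscle, at 174 FPKM against 1249 to 2571 in the other 5, and the highest RGS5, a pericyte marker, at 131 FPKM against 8.22 to 18.7. The fold changes, shares and ratios of the 8 genes were recomputed without each animal in turn, while depths along exons and marker sums were not. In whole muscle, fewer cells of a type and less RNA per cell cannot be told apart.

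COL3A1 encodes the only chain of type III collagen. It stood at 22.4, 20.4 and 23.2 FPKM in Shandong black animals 1, 2 and 3 and at 194, 145 and 192 FPKM in Luxi animals 1, 2 and 3. The Shandong black animals were nearly level, and the lowest Luxi animal was several times above the highest of them. The means were 22.0 ± 1.46 (SD, n = 3) and 177 ± 28.0 (SD, n = 3), a log2 fold change of 2.94 with a 95% interval of 2.38 to 3.50 and a limma adjusted p of 0.00733. Among the genes tested, COL3A1 ranked 974 by mean FPKM in the Shandong black breed and 156 in the Luxi breed. The call was lost without Shandong black animal 1 (adjusted p = 0.0506) and without Shandong black animal 3 (adjusted p = 0.0558), and it was made under the other 4 omissions and all 11 other fits. A single reference transcript of 51 exons carried all of the FPKM of COL3A1 in every animal.

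COL1A1 encodes the α1 chain, of which type I collagen takes a pair per molecule. Its FPKM was 35.8, 17.5 and 36.5 in Shandong black animals 1 to 3 and 121, 74.0 and 85.2 in Luxi animals 1 to 3. Shandong black animal 2 was well below the other 2 of its breed, and the breeds did not overlap. The means were 29.9 ± 10.8 and 93.4 ± 24.5 (SD, n = 3 each). The log2 fold change of 1.65 (95% interval 0.81 to 2.49) missed the threshold with a limma adjusted p of 0.0589, and COL1A1 was called in none of the 6 fits without 1 animal and none of the 11 others.

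COL1A2 encodes the α2 chain of the same molecule. It stood at 12.6, 7.12 and 12.2 FPKM in Shandong black animals 1 to 3 and at 43.7, 30.1 and 33.0 FPKM in Luxi animals 1 to 3. The order of the animals was nearly that of COL1A1, with Shandong black animal 2 lowest and Luxi animal 1 highest. Its log2 fold change of 1.67 (95% interval 1.02 to 2.32) was about that of COL1A1 and was called with a limma adjusted p of 0.0322. With reference transcripts only the fold changes were less alike, 1.67 for COL1A2 and 1.29 for COL1A1. The call did not hold under TPM, without a filter on FPKM, with voom or in 5 of the 6 fits without 1 animal.

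COL5A1 encodes the α1 chain of type V collagen, without which type I fibrils hardly start. It measured 4.38, 2.85 and 4.77 FPKM in Shandong black animals 1 to 3 and 13.1, 11.1 and 15.5 FPKM in Luxi animals 1 to 3. The breeds did not overlap, and the lowest Luxi animal was well above the highest Shandong black animal. The log2 fold change was 1.52 (95% interval 0.99 to 2.05) with a limma adjusted p of 0.0258, and the call was lost without a filter, with voom, with reference transcripts only and in 4 of the 6 fits without 1 animal. In Shandong black animal 2, 63.8% and 13.2% of the FPKM of COL5A1 came from a pair of assembled transcripts that start inside the gene.

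COL5A2 encodes the α2 chain of type V collagen, its usual partner. Shandong black animals 1 to 3 had 7.26, 4.56 and 6.37 FPKM and Luxi animals 1 to 3 had 13.9, 11.3 and 17.9 FPKM. Again the breeds were apart and Shandong black animal 2 was lowest. The log2 fold change of 1.12 had a 95% interval of 0.55 to 1.69 and a limma adjusted p of 0.0588, which missed the threshold.

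COL5A3 encodes the α3 chain of type V, which is less widespread, and was the lowest of the 8 genes in Shandong black cattle. It measured 2.35, 1.97 and 2.77 FPKM in these animals and 7.75, 3.87 and 4.57 FPKM in Luxi animals 1 to 3. The breeds were apart, but Luxi animal 1 was well above the other Luxi animals. Its log2 fold change was 0.89 (95% interval 0.31 to 1.47) with a limma adjusted p of 0.103, so it was not called.

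COL12A1 encodes type XII collagen, which links fibrils to the matrix around them and is made where tissue bears load, such as tendon and fascia. It measured 13.99, 5.25 and 12.5 FPKM in Shandong black animals 1 to 3 and 6.46, 1.66 and 1.33 FPKM in Luxi animals 1 to 3. Here the order was the other way round, except that Luxi animal 1 lay above Shandong black animal 2. The log2 fold change of −1.59 had a 95% interval of −2.79 to −0.39 and a limma adjusted p of 0.135. Without Luxi animal 1 it was −2.12 with an adjusted p of 0.0342, and COL12A1 was then among 593 genes called in all.

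COL14A1 encodes type XIV collagen, found on fibrils of skin, tendon and the sheaths of muscle. It stood at 4.09, 3.92 and 3.12 FPKM in Shandong black animals 1 to 3 and at 7.28, 1.29 and 2.58 FPKM in Luxi animals 1 to 3. Luxi animal 1 was above all others and the other Luxi animals were below all others, so that the breed means were 3.71 ± 0.52 and 3.71 ± 3.15 (SD, n = 3 each). The log2 fold change was −0.20 (95% interval −1.21 to 0.81, adjusted p = 0.815 in limma), and it turned to 0.21 without Luxi animal 2.

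**Figure D2:**
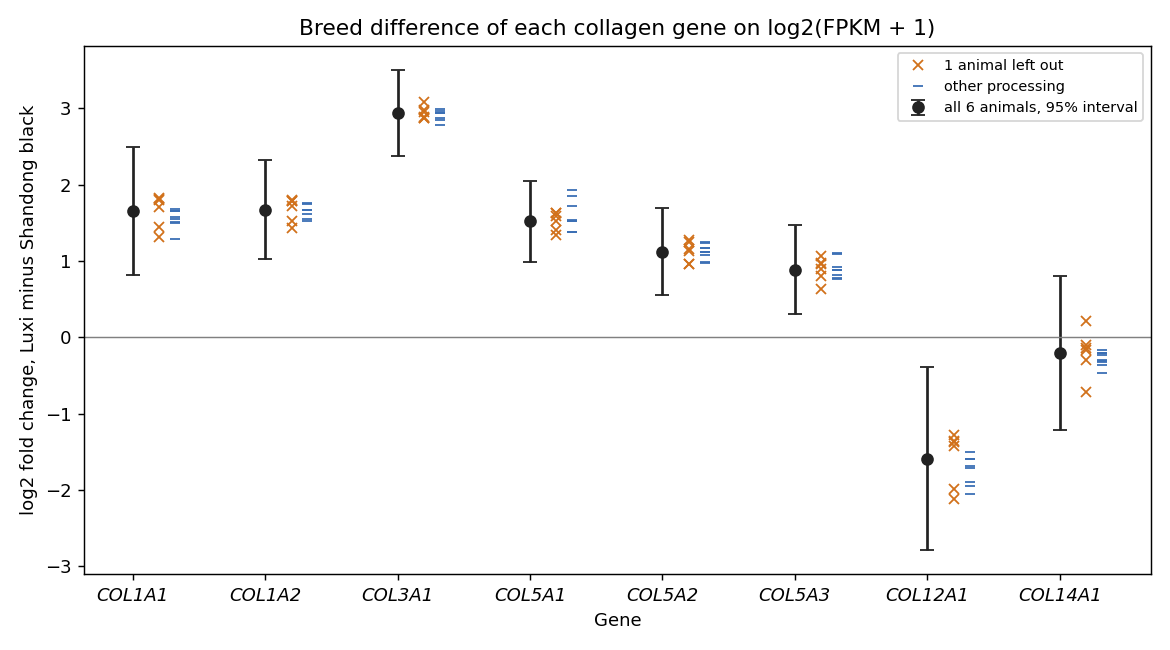
Log2 fold change of each gene, Luxi minus Shandong black on log2(FPKM + 1), with the 95% interval of the fit on all 6 animals (black), the 6 fits without 1 animal (orange crosses) and the 10 or 11 other fits (blue dashes). COL3A1 stayed between 2.79 and 3.08, COL12A1 between −2.12 and −1.28, and COL14A1 crossed 0 in 1 fit.

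The breed difference was not of 1 size in all genes, and the make-up of the collagen message differed between breeds. The summed FPKM of the 8 genes was 103, 63.5 and 102 in Shandong black animals 1 to 3 and 407, 278 and 352 in Luxi animals 1 to 3, 3.87-fold higher by the means. COL3A1 gave 21.8%, 32.1% and 22.9% of this sum in the Shandong black animals and 47.6%, 52.0% and 54.6% in the Luxi animals. COL1A1 was first and COL3A1 the next in Shandong black animals 1 and 3, while COL3A1 was first in Shandong black animal 2 and in every Luxi animal. COL12A1 gave 13.6%, 8.26% and 12.4% in Shandong black animals and 1.59%, 0.60% and 0.38% in Luxi animals, and its place among the 8 genes was the third or the fourth in Shandong black cattle and the last or last but one in Luxi cattle. The shares of COL3A1 and COL12A1 did not overlap between breeds, nor did those of COL1A2, COL5A2, COL5A3 and COL14A1, which were lower in Luxi cattle. Each of these 6 shares had a two-sided p of 0.1 in an exact permutation of the animals, which is the floor for groups of 3, and an adjusted p of 0.133 over the 8 shares. The shares of an animal add up to the whole, so a larger share of COL3A1 leaves less for the others. By FPKM itself, COL1A2, COL5A2 and COL5A3 were higher in every Luxi animal.

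**Figure D3:**
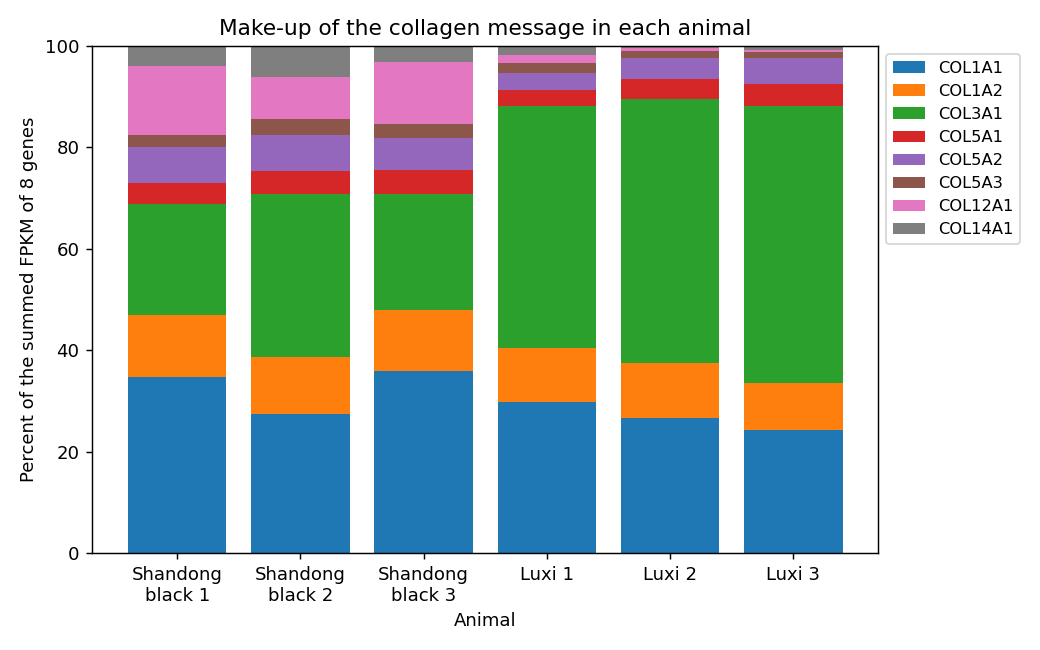
Share of each gene in the summed FPKM of the 8 genes, as stacked bars from 0 to 100%, 1 bar per animal. COL3A1 (green) takes 21.8% to 32.1% in Shandong black cattle and 47.6% to 54.6% in Luxi cattle, and COL12A1 (pink) 8.26% to 13.6% and 0.38% to 1.59%.

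Ratios within an animal do not depend on how the libraries are scaled. COL1A2 per COL1A1 was 0.35, 0.41 and 0.33 in the Shandong black animals and 0.36, 0.41 and 0.39 in the Luxi animals, and the log2 ratio differed by 0.08 between breeds (exact two-sided permutation p = 0.5). With reference transcripts only the Luxi values were 0.47, 0.66 and 0.39 and the log2 difference was 0.45. COL5A1 per COL1A1 also overlapped between breeds, at 0.12 to 0.16 and 0.11 to 0.18 (exact permutation p = 0.9), with a log2 difference of 0.06. With reference transcripts only it was 1.13, and every Luxi animal then lay above every Shandong black animal. COL3A1 per COL1A1 was 0.63, 1.17 and 0.64 in the Shandong black animals and 1.60, 1.95 and 2.26 in the Luxi animals. All Luxi animals lay above all Shandong black animals, with a log2 difference of 1.31. COL5A2 per COL5A1 was 1.66, 1.60 and 1.34 in Shandong black animals and 1.06, 1.02 and 1.16 in Luxi animals, a log2 difference of −0.50. With reference transcripts only the Shandong black values were 1.66, 6.96 and 1.198 and the log2 difference was −1.15, so that its size rests on the assembled transcripts of COL5A1 in Shandong black animal 2. COL12A1 per COL1A1 was 0.39, 0.30 and 0.34 in Shandong black animals against 0.053, 0.022 and 0.016 in Luxi animals, a log2 difference of −3.69 and the widest separation of the 6 ratios. COL14A1 per COL12A1 was 0.29, 0.75 and 0.25 against 1.13, 0.78 and 1.94, and with reference transcripts only the breeds overlapped in it. The 4 ratios without overlap each had an exact permutation p of 0.1, which was 0.15 when adjusted over the 6 ratios.

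In the assembly ARS-UCD1.2 they lie on 7 chromosomes. COL1A1 is on the plus strand of chromosome 19 (36457701 to 36475647), COL1A2 on the plus strand of chromosome 4 (11776444 to 11813113) and COL5A1 on the plus strand of chromosome 11 (105268085 to 105419602). COL5A2 and COL3A1 are neighbours on chromosome 2, with COL5A2 on the plus strand (7198093 to 7358813) and COL3A1 on the minus strand (7375278 to 7414912). Their 3′ ends face each other across 16464 bases. The neighbours differed in the size of the breed difference, 2.38-fold between the means for COL5A2 and 8.04-fold for COL3A1. COL5A3 is on the minus strand of chromosome 7 (14542635 to 14587337), COL12A1 on the minus strand of chromosome 9 (14661264 to 14779844) and COL14A1 on the plus strand of chromosome 14 (81497340 to 81730369).

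The exons of the 6 fibril-forming genes followed the repeat of the triple helix. Of the 49 internal exons of COL1A1, 41 had a length of 45, 54, 99, 108 or 162 bases, and in COL3A1 this held for 42 of 49, of which 24 were exactly 54 bases long. The share of internal exons with these lengths was 70.3% to 85.7% in the 6 fibril-forming genes and 3.22% over the 125189 internal exons of all genes listed. It was 6.35% in COL12A1 and 10.9% in COL14A1, whose proteins are mostly made of other modules. By this measure of gene structure the fibril-associated genes also stood apart from the rest of the list.

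The breed difference was then read along the exons, as depth per base and per aligned gigabase summed over the transcripts of a gene. In COL3A1 all 51 exons were deeper in every Luxi animal than in every Shandong black animal, and the log2 ratio of the breed means ran from 2.54 to 3.81 with a median of 2.99. The first, middle and last block of its exons, cut into 3 equal parts, gave ratios of the breed means of 8.06, 8.002 and 8.07. Within Luxi cattle the blocks differed, since Luxi animal 1 was the deepest of its breed in the last block, at 177 per gigabase, and Luxi animal 2 the shallowest, at 98.0. In COL1A2 all 52 exons were deeper in every Luxi animal, and the ratio was 4.10 in the first block and 3.10 in the last. In COL1A1 49 of 51 exons were, with overlap at exons 44 and 45, where Luxi animal 1 was below Shandong black animal 1. The ratio for COL1A1 was 2.82, 2.37 and 2.54 in the 3 blocks. The same held for 65 of 66 exons of COL5A1, 53 of 54 of COL5A2 and 42 of 67 of COL5A3, while no exon of COL12A1 or COL14A1 was deeper in all Luxi animals.

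**Figure D4:**
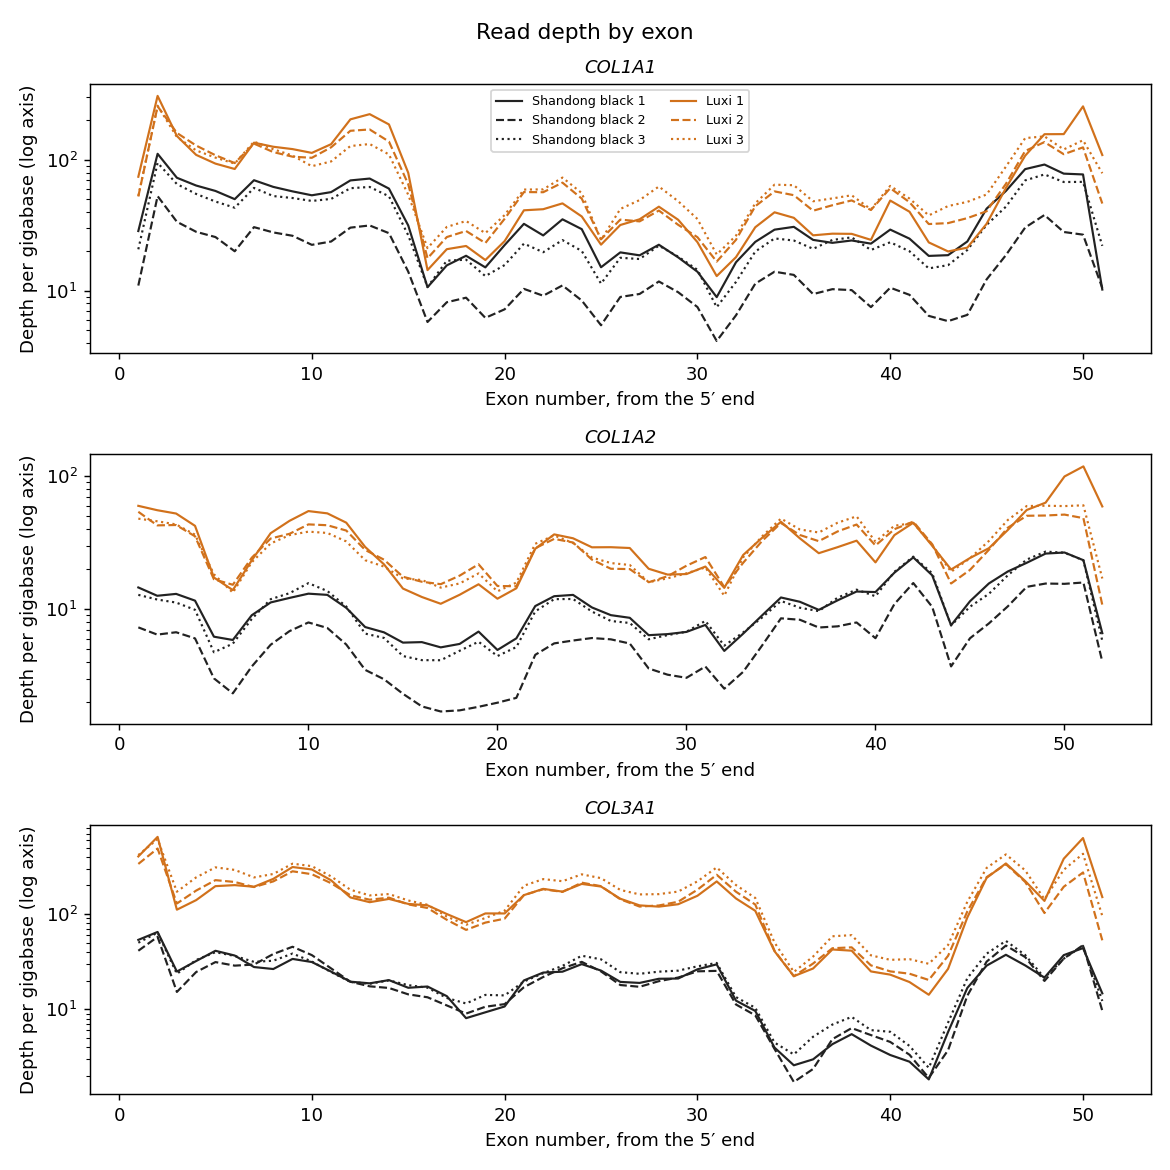
Depth per base and aligned gigabase on a log axis against exon number from the 5′ end, for COL1A1, COL1A2 and COL3A1, with 1 line per animal (black: Shandong black, orange: Luxi). The orange lines run above the black ones in all 51 exons of COL3A1 and all 52 of COL1A2, and they touch the black ones at exons 44 and 45 of COL1A1.

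The share of depth in the exon bases past the midpoint of the message, on the 3′ side, was 47.6% to 54.2% for COL1A1, 54.9% to 68.7% for COL1A2 and 35.9% to 49.1% for COL3A1, with overlap between the breeds in each. For COL5A1 it was 84.9% in Shandong black animal 2 and 54.6% to 64.3% in the other 5. At the 3′ end of COL1A1 the animals differed in what was assembled. Past the end of the shorter reference transcript, 1171 bases of the last exon had a depth per gigabase of 12.3, 10.6 and 4.89 in Luxi animals 1 to 3 and of 0.92 or less in the Shandong black animals. In Luxi animal 1 an assembled fragment of 503 bases there gave 23.6% of the FPKM of COL1A1, and in Luxi animal 2 an assembled transcript of 5778 bases gave 38.5%. With reference transcripts only, the log2 fold change of COL1A1 was 1.29 in place of 1.65, and with depth over the bases shared by all its reference transcripts it was 1.45.

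COL12A1 is made in a long form and in a short form that skips 15 exons near the 5′ end. Depth per gigabase over these exons was 5.90, 2.34 and 5.29 in Shandong black animals and 2.57, 0.12 and 0.84 in Luxi animals. Over the bases shared by every form it was 16.4, 5.58 and 14.5 in Shandong black animals and 7.82, 1.74 and 1.55 in Luxi animals. The long-form exons thus had 36.0%, 41.9% and 36.6% of the shared depth in Shandong black animals and 32.9%, 7.16% and 54.3% in Luxi animals. Shandong black animals were close together, Luxi animals 2 and 3 lay on either side of them, and the breeds did not differ beyond this spread (exact two-sided permutation p = 0.7). Shared depth of COL12A1 itself overlapped between breeds only through Luxi animal 1, as its FPKM did. A short-form transcript starting at 14776366, which is also the 5′ end of a long reference transcript, was assembled in 5 of the 6 animals. It gave 25.9%, 57.8% and 33.0% of the FPKM of COL12A1 in Shandong black animals 1 to 3 and 30.1% in Luxi animal 1. In Luxi animal 2 a pair of such transcripts gave 73.0% and 15.8%, and Luxi animal 3 had none. With reference transcripts only the log2 fold change of COL12A1 was −1.50 with a limma adjusted p of 0.264.

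**Figure D5:**
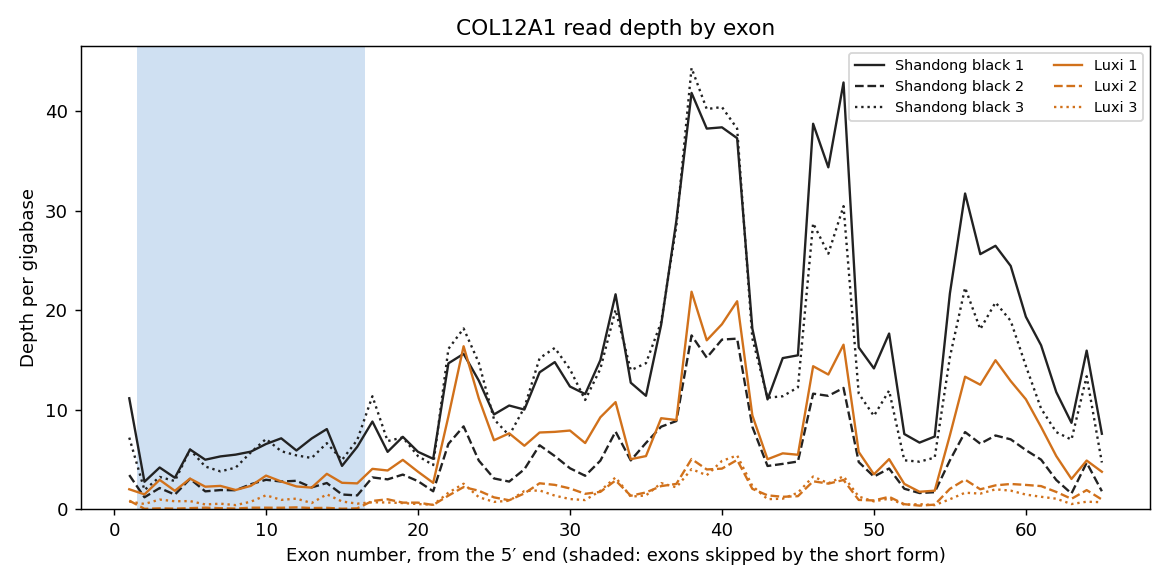
Depth per base and aligned gigabase against exon number from the 5′ end of the long form of COL12A1, with 1 line per animal (black: Shandong black, orange: Luxi). The shaded exons 2 to 16 are skipped by the short form, and Luxi animals 2 and 3 run lowest along the gene, while Luxi animal 1 runs close to Shandong black animal 2.

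Genes that act on collagen after its message is made were read from fixed lists. Counts at an unadjusted p under 0.05 are given for these lists and for the cell markers, those of fibres included. Such p-values were common over all genes tested, since an unadjusted limma p of 0.0478 went with an adjusted p of 0.224. Their share over all genes was not computed, so these counts alone are no sign of a breed difference. Of 20 genes tested for folding and modification, 0 were called in limma (3 at an unadjusted p under 0.05, 0 with voom), and the median log2 fold change was 0.23. SERPINH1, the chaperone HSP47 that holds procollagen in the endoplasmic reticulum, stood at 14.5, 9.12 and 13.3 FPKM in Shandong black animals and 30.3, 15.4 and 32.2 FPKM in Luxi animals, with a difference of 0.97 in log2 (adjusted p = 0.146). COLGALT2, which adds galactose to hydroxylysine, had a log2 fold change of 1.03 with an adjusted p of 0.0672, and in both genes the breeds were apart. In this list every Luxi animal lay above every Shandong black animal in 4 genes and below in 4, against 20.0% and 9.13% of all genes tested. The genes named here were taken by size of change and do not stand for the list. P4HA3, a catalytic subunit of prolyl 4-hydroxylase, had 0.69 with an adjusted p of 0.278 and overlapped.

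Of 9 genes tested for propeptide removal and crosslinking, 2 rose in Luxi cattle by limma, and neither was called with voom. ADAMTS2, the protease that removes the amino-terminal propeptides of types I and III, was at 1.33, 1.69 and 1.55 FPKM in Shandong black animals and 4.30, 3.45 and 4.95 FPKM in Luxi animals (1.05 in log2, adjusted p = 0.0317 in limma). Its call held in 1 of the 6 fits without 1 animal and 2 of 9 others. TGM2, a transglutaminase that crosslinks matrix proteins among many other roles, was at 2.02, 1.60 and 2.24 FPKM against 8.51, 4.83 and 7.12 FPKM (1.38, adjusted p = 0.0292), a call that held in 2 of the 6 fits without 1 animal and was lost with TPM and without a filter. In both genes all Luxi animals lay above all Shandong black animals. The difference of ADAMTS2 rests on assembled transcripts that lie partly outside its exons, since with those of at least 80% on the exons it was −0.92 (adjusted p = 0.221). PCOLCE, an enhancer of the removal of carboxy-terminal propeptides, had a log2 fold change of 0.65 and its relative PCOLCE2 one of −0.91, with adjusted p of 0.160 and 0.140. LOXL2, of the lysyl oxidase family that crosslinks collagen, had 0.66 (adjusted p = 0.311).

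Of 15 genes tested for proteins of the fibril surface, 0 were called in limma (4 at an unadjusted p under 0.05, 0 with voom), with a median log2 fold change of 0.26. Every Luxi animal lay above every Shandong black animal in 3 of these genes and below in 2, against 20.0% and 9.13% of all genes tested. The genes named next were taken by size of change and all fell, unlike the list as a whole. POSTN, periostin, which aids collagen crosslinking, showed 22.7, 0.81 and 15.02 FPKM in Shandong black animals and 0.24, 0.22 and 0.36 FPKM in Luxi animals (log2 fold change −2.79, adjusted p = 0.126). Its level in Shandong black animal 2 was near that of the Luxi animals, and without that animal the difference was −3.94 and called (adjusted p = 0.00530). Shandong black animal 2 was also the lowest of its breed in each of the collagen genes described except COL14A1, so its low COL12A1 is not particular to that gene. THBS1 (thrombospondin 1, −1.10) and FMOD (the fibril-binding proteoglycan fibromodulin, −0.96) overlapped between breeds, and without Luxi animal 1 FMOD was called at −1.77 (adjusted p = 0.0326). Among 7 genes tested for collagen breakdown, TIMP3, an inhibitor of metalloproteinases, rose from 22.3, 18.5 and 20.8 FPKM to 61.6, 41.7 and 63.4 FPKM (1.37, limma adjusted p = 0.0384), a call made in 1 of the 6 fits without 1 animal and not with voom. MRC2, the receptor that takes up collagen fragments, had 0.93 (adjusted p = 0.0832), CTSK, cathepsin K, had −0.65 and TIMP1 −0.44.

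Of 5 collagen receptor genes tested 0 were called in limma (0 at an unadjusted p under 0.05, 0 with voom), and the widest log2 fold changes in size were 0.42 for ITGA1, 0.20 for ITGA11 and 0.17 for ITGB1, all integrin chains. Of 14 genes of the TGF-β pathway and other inducers of collagen 0 were called in limma (3 at an unadjusted p under 0.05, 1 with voom), and their median was 0.50. TGFB2, a ligand of that pathway, stood at 5.83, 2.46 and 4.80 FPKM in Shandong black animals and 7.22, 7.92 and 12.4 FPKM in Luxi animals, apart between breeds by 0.95 in log2 (adjusted p = 0.139). CREB3L1, a transcription factor for type I collagen genes, and CTGF, a growth factor of fibrosis, had 0.72 and 0.70 and overlapped, but with reference transcripts only they were called in opposite directions, at 1.33 (adjusted p = 0.0385) and −3.08 (adjusted p = 0.0277). Among other collagens of the fibrillar and fibril-associated families, COL21A1 was listed at 0 in all Shandong black animals and at 0.95, 1.80 and 2.08 FPKM in Luxi animals and was called (adjusted p = 0.0292), while COL11A1 was at 0 to 2.26 FPKM and overlapped. COL21A1 passed the filter only through the Luxi animals, and its call held in 1 of the 6 fits without 1 animal and was lost without a filter, with voom, with reference transcripts only (0.86, adjusted p = 0.280) and with the replicate block (adjusted p = 0.0592). The other 11 genes of that list were not analysed here.

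Markers of other cells and of the cells that make collagen were read from fixed lists too. Of 11 tested markers of fibro-adipogenic progenitors and fibroblasts 0 were called in limma (2 at an unadjusted p under 0.05, 0 with voom), their median log2 fold change was −0.06, and their summed FPKM was 355 to 491 in Shandong black cattle and 407 to 519 in Luxi cattle. PDGFRA, the defining receptor of these cells, was at 9.01, 6.96 and 8.35 FPKM in Shandong black animals and at 10.5, 11.2 and 10.7 FPKM in Luxi animals, 0.38 higher in log2 (adjusted p = 0.262). Others of the list moved further in both directions without being called. THY1, a surface protein of fibroblasts, and CD34, which also marks vessels, were higher in every Luxi animal, by 0.98 and 0.67 in log2 (adjusted p = 0.0871 and 0.303). PI16, a marker of progenitors, was at −1.08 (adjusted p = 0.165) and overlapped between breeds. DPT, of the same list, was lower in every Luxi animal, at −0.39 (adjusted p = 0.284). Tendon and cartilage markers summed to 50.2 to 154 FPKM and 17.99 to 74.1 FPKM, and COMP, a matrix protein of tendon and cartilage, fell by 3.52 on the log2 scale (adjusted p = 0.0362 in limma), from 44.3, 9.06 and 32.4 FPKM to 2.83, 1.11 and 0.26 FPKM, a call made in 2 of the 6 fits without 1 animal and not with voom. Within each breed COMP and COL12A1 placed the same animals highest, Shandong black animal 1 and Luxi animal 1, but COL1A2 and COL14A1 did so too. Of the 5 tested tendon and cartilage markers the other 4 were not called, with CILP2 and THBS4, a pair of cartilage and tendon matrix proteins, at −1.08 (adjusted p = 0.0680) and −0.76 (adjusted p = 0.518). SCX, the defining transcription factor of tendon cells, was at 0.029 to 0.36 FPKM, and TNMD, tenomodulin, at 0 to 2.91 FPKM. The part of tendon or fascia in the COL12A1 values was not tested.

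Endothelial markers summed to 22.7 to 24.0 FPKM in Shandong black cattle and 28.5 to 80.6 FPKM in Luxi cattle, with the highest value in Luxi animal 1, and 0 of 7 were called in limma (3 at an unadjusted p under 0.05, 0 with voom). Smooth muscle and pericyte markers summed to 96.3 to 116 FPKM and 61.8 to 316 FPKM, with NOTCH3, a receptor of vessel wall cells, called as higher in limma, though in none of the 6 fits without 1 animal, and the other 7 not called. Adipocyte markers summed to 134 to 195 FPKM and 13.0 to 37.5 FPKM, and 5 of 7, among them ADIPOQ, were called as lower in Luxi cattle. With voom 3 of 7 were called, and the call of ADIPOQ was lost with voom and held in 1 of the 6 fits without 1 animal. Macrophage markers, with 0 of 7 called in limma (2 at an unadjusted p under 0.05, 0 with voom), summed to 32.04 to 44.1 FPKM and 16.1 to 34.2 FPKM. Schwann cell markers summed to 56.4 to 131 FPKM and 37.4 to 50.4 FPKM, with 0 of 3 called in limma (3 at an unadjusted p under 0.05, 0 with voom). The lower sum came from S100B, at −2.33 in log2, while MBP and PMP22, genes of myelin, were higher in every Luxi animal, at 0.86 and 1.06. The blood markers found summed to 0.40 to 0.54 FPKM and 0.20 to 1.11 FPKM. Without Luxi animal 1, when 593 genes were called in all, PI16, CILP2 and S100B were called as lower and PMP22 and TNNI2 as higher, and with the replicate block S100B and TNNT3 were called. The part of these cell types in the collagen differences was not tested. Without Luxi animal 1 the log2 fold change was 2.87 for COL3A1, which was the smallest of its 6 omissions, and 3.08 was the largest.

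The mean profile of the 8 genes over the 6 animals, as log2(FPKM + 1) centred on each gene's mean, was −0.30, −0.85 and −0.34 in Shandong black animals 1 to 3 and 0.93, 0.13 and 0.44 in Luxi animals 1 to 3. The 5 genes nearest to it by root-mean-square distance over the 6 animals were EMP1 (0.107), HEG1 (0.115), WWC3 (0.120), SLC9A3R2 (0.121) and MEX3D (0.132). COL5A3, at 0.132, was the member nearest to this mean, and COL12A1, at 1.36, was the farthest. The median distance of tested genes outside the list was 0.608. COL3A1, at 0.99, COL14A1, at 0.71, and COL12A1 lay farther than that, so the mean is not a profile shared by all 8 genes. None of the 5 nearest genes was called, with log2 fold changes of 0.82 to 0.93. EMP1, an epithelial membrane protein, for example was at 30.7, 17.4 and 26.1 FPKM in Shandong black animals and 59.3, 34.7 and 49.6 FPKM in Luxi animals, with the order of animals that COL1A1 also showed within Luxi cattle.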

How the data were processed

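Total RNA libraries (TruSeq) of 6 muscles were sequenced on an Illumina HiSeq instrument. According to the study's methods, the authors trimmed reads with Fastp and aligned them to ARS-UCD1.2 with HISAT2. Per the file headers, the deposited transcript lists were made with StringTie 1.3.3b and hold the authors' depth, FPKM and TPM of each transcript in 1 text field. No read counts were used.

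Gene FPKM was the sum over reference transcripts of the gene plus those unnamed assembled transcripts on its strand that had 50% or more of their length in its exons. Genes whose mean FPKM reached 1 in a breed were tested on log2(FPKM + 1) with limma 3.58.1 in R 4.3.3 (trended eBayes, Benjamini-Hochberg over 9781 genes), so fold changes of low genes are understated. With 3 animals per breed, two-sided exact permutation p cannot go below 0.1. Each library came from 1 animal, so limma p-values set the breed difference against the spread between these animals, moderated over genes. Alternatives were other scalings, filters, pseudocounts, transcript sets, voom, a replicate block and leaving out each animal. Named were all 8 genes, the 5 nearest profiles and, from the lists other than cell markers, called genes with at most 3 others per list by size of change. Marker genes named by value were chosen after their values were seen. The members and lists were chosen with earlier results of these data known. The test was checked on simulated data with each gene's mean and spread, in which 200 of 9781 genes were changed. It called 60.5% of the genes changed by 1.5 in log2 and 92.5% of those changed by 3, with 4 unchanged genes called each time. A true change of about 1.5 was thus often missed.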

Additional observations from a re-analysis of the deposited data

Results flagged for a closer look

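Assembled transcripts on the strand opposite to COL1A1 were found in all 6 animals, in data that no comparison above used, with a median summed FPKM of 1.15 and at most 4.62% of the FPKM of COL1A1 in the same animal. Those opposite to COL3A1 were also found in all 6 animals, with a median summed FPKM of 0.65 and at most 2.64% of that of COL3A1. Both were far below the gene itself. StringTie was run with its stranded setting, while the labels name a TruSeq RNA kit without saying that it is a stranded one, so that reads of the opposite strands cannot be told apart with certainty.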

How the results depend on the processing

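Of the 8 genes, COL3A1 was called in every fit that kept all 6 animals. COL1A2 was no longer called without a filter on FPKM (log2 fold change 1.67), with TPM (1.61) or with voom on estimated read numbers (1.74), and COL5A1 without a filter (1.52), with voom (1.85) or with reference transcripts only (1.93). The number of the 8 genes called was 3, and it was 1 without a filter and 1 with voom. Leaving out 1 animal at a time gave 0 to 4 genes called. It moved the log2 fold change from 1.43 to 1.80 for COL1A2, from 2.87 to 3.08 for COL3A1, from 1.34 to 1.63 for COL5A1, from −2.12 to −1.28 for COL12A1 and from −0.71 to 0.21 for COL14A1, which changed sign without Luxi animal 2. The number called was 0 without Shandong black animal 1 or 3, and 1 without Luxi animal 2 or 3. The median stayed between 1.14 and 1.46 in fits that held all 8 genes, and was 1.59 with a mean FPKM of at least 5, which left out COL5A3 and COL14A1. The COL5A1 to COL1A1 ratio, which overlapped between breeds, changed sign when animals were left out (−0.11 to 0.26), and was 1.13 with reference transcripts only, and the COL5A1 share of the sum changed sign with them (0.62 percentage points). Depth over shared exons, chosen after seeing the data, kept the direction of all 8 genes. This depth comes from the same transcript depths as FPKM. For COL3A1 and COL1A2, each with a single transcript, it had to follow FPKM and is no separate check. Among the other genes named, the direction turned for P4HA3 (−0.051) and CTGF (−3.08) with reference transcripts only, for ADAMTS2 (−0.92) with assembled transcripts of at least 80% on the exons, and for ITGB1 (−0.012) with voom. Leaving out 1 animal moved TIMP1 from −0.92 to 0.028, ITGA1 from −0.11 to 0.78 ITGB1 from −0.14 to 0.39, ACTA1 from −0.63 to 0.45 and RGS5 from −0.42 to 1.503. Calls over all genes were 251, and ranged from 47 without a filter (18010 genes tested) and 92 with voom to 289 with quantile normalization, and from 3 to 593 without 1 animal. Same-numbered animals of the breeds deviated with correlations of 0.075 to 0.087, too low to pair them, though each was highest with its own number. With the number as a replicate block 3 of the 8 genes were called, COL3A1 at an adjusted p of 0.0324, and 135 genes in all. The cause of each lost call was not tested. With 3 animals per breed the precision is limited by the number of animals, and depth per library was 14.1 to 17.99 gigabases.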
